A study of Mus musculus with 42 samples.

Results

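Dio1 encodes type 1 iodothyronine deiodinase, and its RNA was followed here across 21 mouse mammary tumours measured on 42 two-colour arrays of long oligonucleotide probes. Of the 22800 probes in the table, 1 was annotated to Dio1, so no second probe of the gene could be set beside it. Dio1 was chosen by its measured values, for the wide range of its tumour means, and its levels are therefore given as a description with no test. The tumours all descended from mammary neoplasms of FVB/N-Tg(WapMyc)212Bri mice, in which the promoter of Wap, a whey protein gene of the milk-secreting epithelium, drives c-Myc. Selection in living mice had produced a glandular line, solid or comedo lines without and with lung metastases, and a spindloid line of mesenchymal cells. The labels number each tumour and do not give its line, the age or sex of the host, or how many founding tumours there were. Normal mammary tissue was not among the samples, so every value is a ratio between a tumour and a universal mouse reference RNA, each tumour being hybridised in a dye-swapped pair.

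Deiodinases remove iodine from thyroid hormones. Dio1 can turn thyroxine into the active hormone triiodothyronine and also clears inactive forms, Dio2 makes triiodothyronine inside the cell, and Dio3 inactivates both hormones. All are selenoproteins with selenocysteine in the active site. Dio1 is best known from liver, kidney and thyroid, and its activity has also been described in the lactating mammary gland of rats.

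The probe carries no sequence in the files used here, so the regions upstream of Dio1 and of Car6, the gene whose levels followed it most closely, are shown for context. Both genes lie on the minus strand of chromosome 4 in GRCm38.p6, and each sequence is the 250 bases before the start in RefSeq, at chr4:107307169-107307418 for Dio1 and chr4:150201136-150201385 for Car6. Capitals mark a match to CACGTG, the palindromic E-box that Myc can bind.
Dio1: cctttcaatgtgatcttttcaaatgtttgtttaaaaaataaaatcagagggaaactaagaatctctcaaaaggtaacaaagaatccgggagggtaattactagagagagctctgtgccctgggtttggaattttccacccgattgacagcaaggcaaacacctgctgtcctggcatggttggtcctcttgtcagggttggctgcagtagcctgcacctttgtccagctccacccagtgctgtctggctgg
Car6: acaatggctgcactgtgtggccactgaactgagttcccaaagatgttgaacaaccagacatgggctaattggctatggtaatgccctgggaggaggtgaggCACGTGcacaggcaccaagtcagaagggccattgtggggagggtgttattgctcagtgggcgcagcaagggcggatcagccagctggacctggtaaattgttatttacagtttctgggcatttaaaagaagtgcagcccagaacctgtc
The Dio1 stretch held no match, on either strand, to CACGTG, to AGGTCA (a half-site of thyroid hormone receptors), to TTCNNNGAA (a site of STAT5, the factor that carries the prolactin signal) or to TATAAA. The Car6 stretch held 1 CACGTG, beginning 149 bases before the start, and none of the other 3. Among 32851 promoters of the same length, 6.02% held CACGTG, 14.02% AGGTCA, 7.02% TTCNNNGAA and 12.4% TATAAA. The GC content was 46.8% for Dio1 and 52.4% for Car6, against a median of 52.4% over all those promoters.

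The arrays held between 8600 and 21328 measured probes, with a median of 17478.5. Values are given as log2 ratios of the dyes after the arrays of one orientation had been turned, and a tumour's value is the mean of its arrays. The orientation of each array was inferred from the data, and the overall sign was chosen so that Myc came out positive. If that choice were wrong, every level below would change sign together, and no correlation, slope or F test would change. Tumour 656 was the exception among the pairs: its raw arrays correlated at 0.0743 over probes, where the other 20 pairs lay below 0, down to -0.565. Its turned arrays therefore disagreed over probes, although both gave Dio1 a high value. Myc itself lay between 1.85 and 4.08 in the 7 tumours highest in Dio1 and between -0.91 and 2.24 in the other 14. Vim, the intermediate filament of mesenchymal cells, was above 0 in tumours 644, 646, 647, 649 and 673, from 0.30 to 1.22. In the other 16 tumours Vim was at most -3.02.

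Dio1 had a value on 38 of 42 arrays, from both arrays of 17 tumours and from a single array of tumours 663, 655, 660 and 664. The highest values were on the arrays of tumour 667, at 9.67 and 8.64, of tumour 656, at 9.70 and 7.98, and of tumour 669, at 8.49 and 7.87. Tumour 638 gave 8.22 and 7.87, and tumour 643 gave 8.23 and 7.58. Tumour 640 gave 7.07 and 6.55, and tumour 641 gave 5.99 and 6.65. These 7 tumours had means of 6.32 to 9.16, and none of their arrays lay below 5.99. A step lower came tumour 673, at 4.84 and 3.30, tumour 639, at 3.93 and 3.75, and tumour 644, at 3.94 and 3.57. The arrays of tumour 670 gave 2.46 and 0.84, those of tumour 647 gave 2.51 and -0.03, those of tumour 649 gave 1.75 and 0.45, and those of tumour 662 gave 1.84 and 0.26. Around 0 lay tumour 663, at 0.47, tumour 655, at 0.25, tumour 660, at 0.18, tumour 665, at 0.77 and -0.71, and tumour 646, at -0.10 and -0.15. The lowest were tumour 653, at 0.11 and -2.53, and tumour 664, at -4.32 on its only array with a value.

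**Figure D1:**
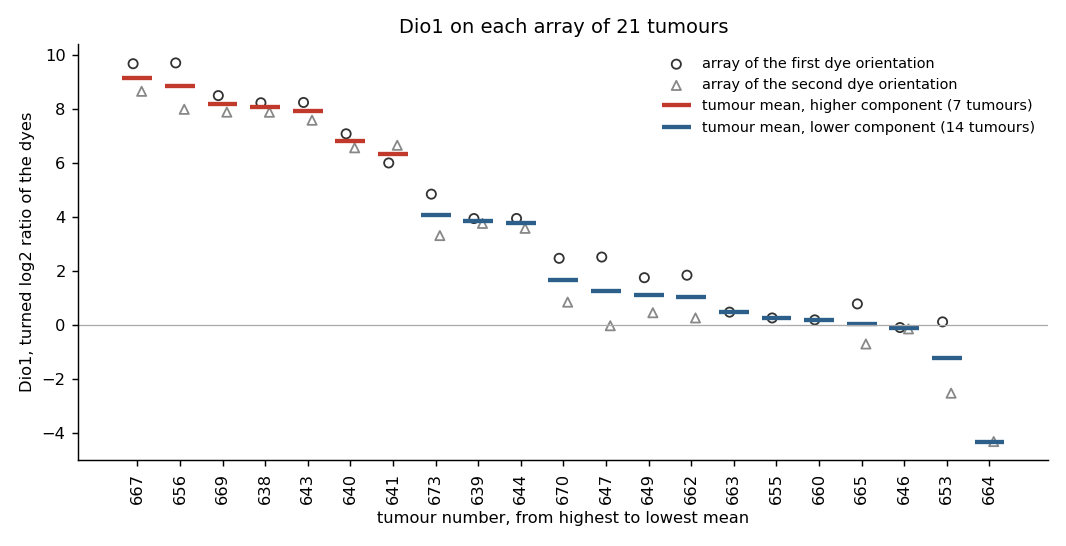
Dio1 on each array (points) and its tumour mean (bars), as turned log2 ratios of the dyes, for 21 tumours ordered by the mean. The means of 7 tumours lie between 6.32 and 9.16, those of tumours 673, 639 and 644 between 3.75 and 4.07, and all others at 1.65 or below.

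The arrays of a pair ranked the tumours alike, with a Pearson correlation of 0.975 and a Spearman correlation of 0.958 over the 17 tumours with both. The within-tumour SD was 0.949, which gives a mean of 2 arrays a standard error of 0.671. The array of the first orientation read higher in 16 of the 17 tumours, by 1.03 on average, and the arrays of a pair differed by 0.05 to 2.64, with a median of 1.02. The SD counts that offset as spread. Tumours 663, 655 and 660 had a value only in the first orientation and tumour 664 only in the second, so in them the offset was not averaged out. In the order of the means, only 3 of the 20 gaps between neighbours exceeded 2 standard errors of their difference. These lay between tumours 641 and 673, with a gap of 2.25, between 644 and 670, with 2.10, and between 653 and 664, with 3.11. The other gaps lay within 2 standard errors. Dio1 was picked for its range, so the gaps describe the order and test nothing. The tumour means spanned 13.48, the widest range among 7629 genes tested, where the median range was 3.08. Among tumours with both arrays the span was 10.37, or 1320-fold, between tumours 667 and 653. The arrays of tumour 653 differed by 2.64, the most of any pair. The bottom of the full range, and with it the first rank, rests on 1 array, since Car6, described below, spanned 13.41. The -4.32 of tumour 664 equals the log2 of 1 over a whole number to within 0.001, as did 62.6% of the 1582 values of that array between 3 and 5 in size. Of the 7 Dio1 values of that size over all arrays, 1 did, that of tumour 664.

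A mixture model of the tumour means (mclust) preferred 2 components to 1, with a Bayesian information criterion of -121.21 against -121.50, where a higher value is better. The higher component held the 7 tumours at 6.32 and above, and the lower held the other 14. That preference was slight. With each array centred on its median, 1 component was preferred, at -118.99 against -119.18 for the best fit of 2. Without tumour 664, 3 components were preferred, made of the same 7 tumours, of tumours 639, 644 and 673, and of the remaining 10. The components come from Dio1 itself, so they are used below only to keep relations within one range of Dio1.

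High tumours occurred in every series of slides, and the part of the series in the Dio1 values was not tested. Running numbers in the titles gave 3 slide runs of 9, 13 and 20 arrays, whose nature the labels do not state. Of the 4 tumours wholly in the first run 2 were high, and of the 8 wholly in the third 4 were high. Of the 5 wholly in the second 1 was high, tumour 656, whose turned arrays disagreed over probes. The 4 tumours spread over 2 runs were all in the lower component. Dio1 also moved with the level of whole arrays. Its tumour means correlated at 0.738 with the mean of the tumour's array medians over 21 tumours, and the part of that shift in the relations below is given by the values after centring. The tissue was bulk tumour, so fewer cells of a type and less RNA per cell cannot be told apart.

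Car6 encodes the secreted carbonic anhydrase of saliva and milk, and was the gene whose tumour means were most like those of Dio1. Over 21 tumours their Pearson correlation was 0.954, against a median of 0.368 for 7628 genes and of -0.01 after centring, when Car6 stood at 0.966. Car6 lay between 7.16 and 10.49 in the 7 tumours high in Dio1, with a median of 8.18. In the other 14 it lay between -2.92 and 4.47, with a median of 1.10. The same intermediate tumours stood out again: 673 had 4.47, 639 had 4.32 and 644 had 4.18, above the other 11. With Dio1 read from one orientation and Car6 from the opposite one, so that no array was shared, the correlation was 0.941 or 0.957. Within the third slide run, the only one with at least 6 whole tumours, it was 0.991. Car6 was least certain in tumour 663, whose arrays gave 5.39 and -4.30, and its lowest value, in tumour 660, came from 1 array.

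Gfpt2, which catalyses the entry step of hexosamine synthesis, followed with a correlation of 0.945. Gfpt2 was 3.03 to 6.08 in the 7 high tumours, with a median of 4.86, and -1.08 to 1.12 in the other 14, with a median of 0.22. The groups of values did not overlap. They were cut from Dio1, and Gfpt2 was picked for its likeness to Dio1, so that separation supports nothing further. Azin1, the antizyme inhibitor that frees ornithine decarboxylase for polyamine synthesis, correlated at 0.917. Azin1 was 1.46 to 4.22 in the high tumours, with a median of 3.17, and -1.14 to 0.08 in the rest, with a median of -0.32. Unlike Car6, Azin1 showed no intermediate step, with -0.20 in tumour 673, -0.02 in tumour 639 and -0.14 in tumour 644. Anpep, a membrane aminopeptidase, correlated at 0.932, with 3.03 to 4.16 in the high tumours and -1.26 to 2.39 in the rest.

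**Figure D2:**
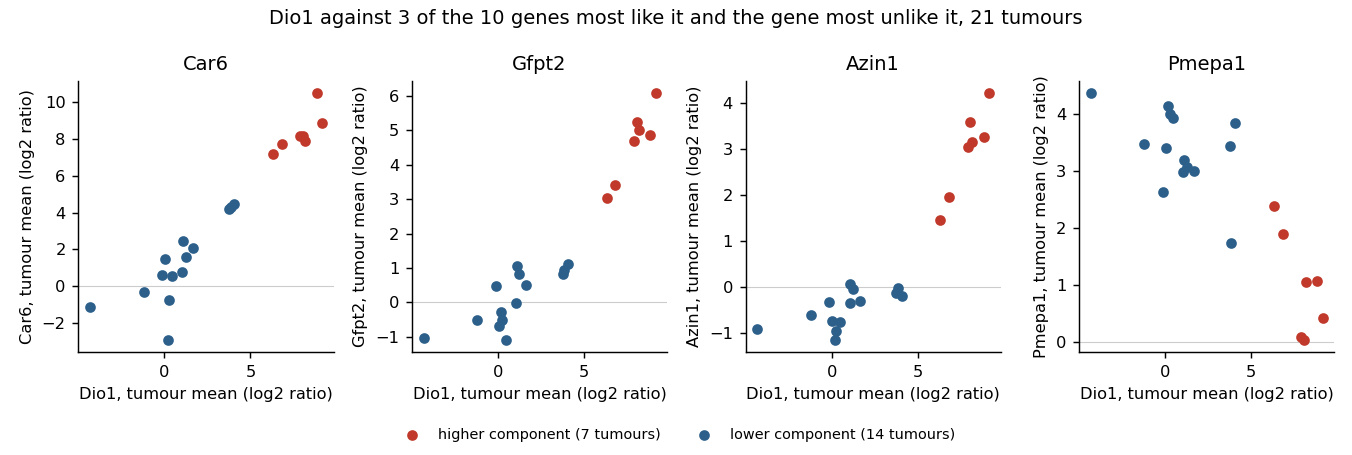
Tumour means of Car6, Gfpt2, Azin1 and Pmepa1 (y axes, turned log2 ratio) against those of Dio1 (x axes), 1 point for each of 21 tumours, with red for the 7 tumours of the higher Dio1 component and blue for the 14 of the lower. Car6 climbs along the whole axis, Gfpt2 and Azin1 are high in the 7 red tumours, and Pmepa1 is mostly low there.

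The other 6 of the 10 genes most like Dio1 had correlations of 0.901 to 0.926. They were Pecr, a peroxisomal enoyl-CoA reductase, Aldh7a1, an aldehyde dehydrogenase of lysine breakdown, Cdadc1, a cytidine deaminase relative, Strada, the pseudokinase partner of LKB1, Frmd4b, a FERM-domain scaffold, and Dct, an enzyme of melanin synthesis. Aldh7a1 was 2.46 to 4.23 in the high tumours and -2.25 to 3.08 in the rest, where tumour 639 reached the top. Strada, measured in 17 tumours, was the least steady, at 0.868 and 0.485 between opposite orientations. The next gene after these 10 stood at 0.899.

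Pmepa1, an inhibitor of TGF-beta signalling, had the lowest correlation with Dio1 on the deposited scale, at -0.865, though not after centring. Pmepa1 was 0.04 to 2.39 in the tumours high in Dio1, with a median of 1.06, and 1.74 to 4.36 in the rest, with a median of 3.42. Tumours 641 and 639 are where those ranges meet, at 2.39 and 1.74. Ddit4, a stress-induced inhibitor of mTORC1, stood at -0.864, with -1.45 to -0.19 in the high tumours and -0.44 to 1.78 in the rest. The remaining 3 were 3000002C10Rik at -0.828, Rap2c, a small GTPase, at -0.808, and Rab22a, a GTPase of endosomes, at -0.801. After centring these 5 had correlations of -0.884 to -0.819. Of the 15 genes, 10 differed between tumours by limma's moderated F test at an adjusted p under 0.05, where 18.9% of 7629 genes did (19.6% after centring). Not passing were Strada (adjusted p 0.945 by limma), Cdadc1 (0.657), Pecr (0.0759), Dct (0.0703) and Rap2c (0.0967, but 0.0147 after centring). By their correlation with Dio1 after centring, Pecr, Cdadc1 and Strada ranked 14, 16 and 29 from the top. The 15 genes were picked for following Dio1 over tumour means, which favours genes that vary between tumours, so the count of 10 supports nothing further.

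**Figure D3:**
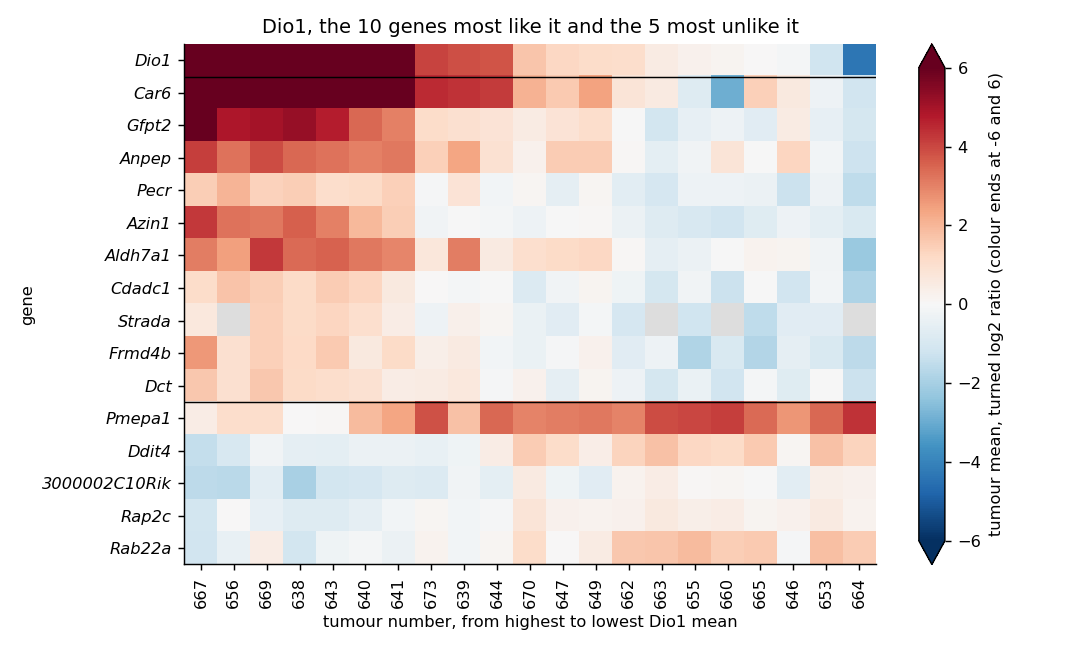
Tumour means (colour, turned log2 ratio, grey where no value) of Dio1, the 10 genes most like it and the 5 most unlike it (rows), with tumours in the order of Dio1 (columns). The upper block is red in the first 7 columns, and Dio1 and Car6 are still at 3.75 or more in tumours 673, 639 and 644.

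Within the components few relations could be called, although the lower one still holds the gaps of 2.10 and 3.11 in Dio1. Over the 7 tumours of the higher component no gene had a slope on Dio1 that passed limma's test at an adjusted p under 0.05 (0% of 7592 genes, 638 at an unadjusted p under 0.05, smallest adjusted p 0.257). Over the 14 of the lower component 75 of 7628 genes passed (0.983%), all with positive slopes, among them Car6 and Tie1, an endothelial receptor, both at an adjusted p of 0.0458 by limma. After centring no gene passed, and the adjusted p from limma was 0.0754 for Car6 and 0.131 for Tie1. The count hung on single tumours: each of the 14 removals moved it by more than 1.5 times, between 0 and 533, and it was 0 without tumour 639, 647, 655, 664, 670 or 673. A fit over all 21 tumours called 36.1% of 7628 genes, 33.2% positive and 2.94% negative. After centring it called 16.9%, 6.55% positive and 10.3% negative.

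The milk and secretory list asked whether Dio1 went with the secretory programme of the gland. It named 24 genes, 22 of them had a probe and 13 had enough values to be tested. Csn1s1, Csn1s2a, Csn1s2b, Wap, Lalba, Glycam1, Ltf, Cel and Elf5 had values on too few arrays, and Prlr and Stat5b had no probe of their own, so the caseins rest on Csn2 and Csn3. None of 26 relations within the components passed for Pearson's r after Benjamini-Hochberg adjustment over 264 relations of listed genes, where the smallest adjusted p was 0.1 and 52 had a permutation p under 0.05. By Spearman's rho 2 of the 264 passed, Lpo and Car6, both in the lower component at an adjusted permutation p of 0.0370, with rho of 0.846 for Lpo and 0.855 for Car6. The median correlation of the 13 genes was -0.315 in the higher component, beside -0.240 for all genes, and 0.02 in the lower, beside 0.415.

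Csn2, the gene of beta-casein, did not track Dio1. Csn2 was highest in tumour 641, at 7.54, where Dio1 was lowest among the 7 high tumours, and next in tumours 663 and 660, at 6.73 and 6.36, where Dio1 lay near 0. In tumour 656, among the highest in Dio1, Csn2 was -0.16. Its correlation with Dio1 was -0.839 in the higher component (exact permutation p 0.0187, adjusted 0.203) and -0.476 in the lower (permutation p 0.0839, adjusted 0.282). Spearman's rho was -0.786 (exact permutation p 0.0480, adjusted 0.239) and -0.446 (permutation p 0.113, adjusted 0.295). Without the 2 tumours farthest from the Dio1 median, r was -0.499 and -0.358. Csn3, the gene of kappa-casein, was 2.73 to 9.14 in the higher component and -2.14 to 5.21 in the lower, with overlapping values and correlations of 0.249 and 0.02.

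Lpo, lactoperoxidase of milk and saliva, came closer to Dio1 than any other gene of the list in the lower component. Lpo was 1.33 to 9.59 in the 7 high tumours, with a median of 6.30, and 0.19 to 3.98 in the other 14, with a median of 1.07. The 9.59 of tumour 667 came from 1 array. Tumour 656 was the low one among the 7, at 3.46 and -0.81, and tumour 673 the high one among the 14, at 5.58 and 2.38. Lpo correlated with Dio1 at 0.438 in the higher component (exact permutation p 0.336, adjusted 0.533). In the lower component Pearson's r was 0.759 (permutation p 0.00388, adjusted 0.1) and did not pass, while Spearman's rho of 0.846 did (adjusted permutation p 0.0370). Without the 2 tumours farthest from the median r there was 0.773, and after centring 0.669. Mucl2, a secreted mucin-like protein, reached 8.91 in tumour 667 and 7.49 in tumour 638 but only 0.31 in tumour 656, and lay between -1.91 and 0.70 in the lower component.

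Muc1, the membrane mucin of luminal cells, correlated at -0.919 with Dio1 in the higher component (exact permutation p 0.00893, adjusted 0.147) and at 0.401 in the lower. Its rho in the higher component was -0.857 (exact permutation p 0.0238, adjusted 0.217), and r was -0.603 without tumours 640 and 641. Mfge8, a milk fat globule protein, correlated at -0.315 and -0.585, and Stat5a, the mediator of prolactin, at -0.155 and 0.591. Btn1a1, butyrophilin of the milk fat globule, stood at -0.802 and 0.424. Lcn2, an iron-siderophore carrier, stood at 0.264 and -0.247, and Folr1, a folate receptor, at -0.630 and -0.077. Xdh, Plin2 and Lpl, of milk fat secretion and storage, lay between -0.602 and 0.407. Over all 21 tumours limma called 6 of the 13 positive, namely Csn3, Muc1, Lpo, Mucl2, Folr1 and Stat5a, beside 33.2% of all genes. After centring it called Lpo, Mucl2 and Stat5a, beside 6.55%.

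**Figure D4:**
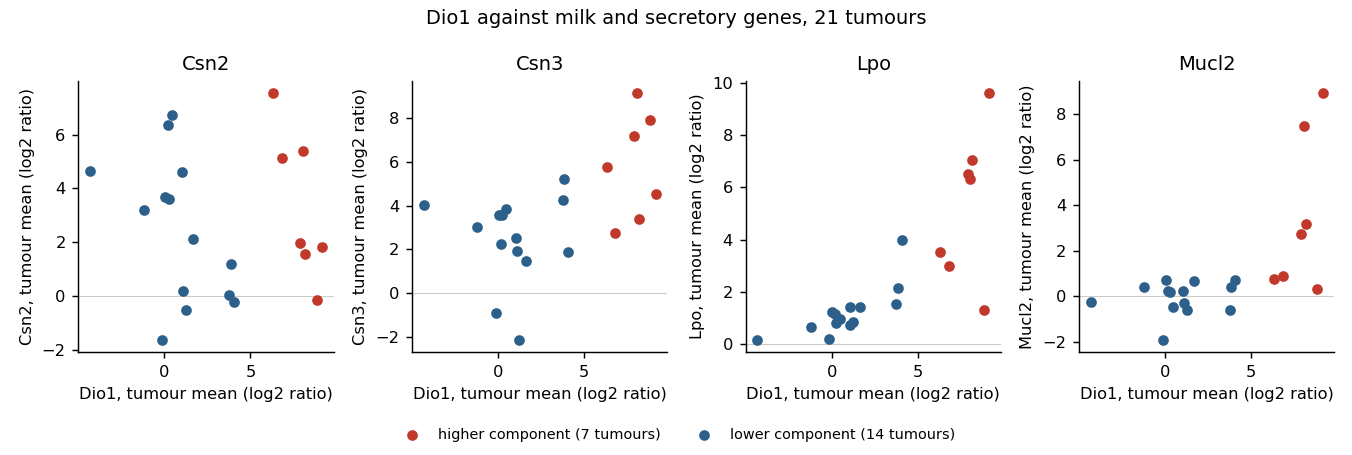
Tumour means of Csn2, Csn3, Lpo and Mucl2 (y axes, turned log2 ratio) against those of Dio1 (x axes) in 21 tumours, with red for the 7 tumours of the higher component and blue for the 14 of the lower. Csn2 is spread over the whole Dio1 axis, and tumour 656, the second from the right, is low in Lpo (1.33) and Mucl2 (0.31).

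The thyroid hormone list held 31 genes beside Dio1, of which 25 had a probe and 15 could be tested. By limma's F test 3 of the 15 differed between tumours, beside 18.9% of all genes, and 7 with the dye orientation as a covariate, beside 45.1%. Dio2 (adjusted p 0.0468 by limma, 0.0344 after centring) was 0.70 to 2.26 in the 7 tumours high in Dio1, with a median of 1.42, and -1.70 to 1.26 in the rest, with a median of 0.03. The ranges overlapped. Dio2 correlated with Dio1 at 0.600 in the higher component (exact permutation p 0.155, adjusted 0.330) and at 0.658 in the lower (permutation p 0.0102, adjusted 0.159), and neither passed. Spearman's rho was 0.393 (exact permutation p 0.396, adjusted 0.590) and 0.670 (permutation p 0.0105, adjusted 0.174). Without the 2 tumours farthest from the Dio1 median Pearson's r was -0.220 and 0.347, so both values of r rest on those tumours. Slc7a5, a transporter of large amino acids and thyroid hormones, also differed (adjusted p 0.00989 by limma). So did Med1, a coactivator of nuclear receptors (0.0338 by limma), but not after centring (0.332). Dio3 had no probe of its own in the annotation.

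No relation of Thra to Dio1 passed a test. Thra, the alpha receptor, was -1.81 to 0.56 in the higher component and -3.72 to 0.17 in the lower, with an adjusted p of 0.0686 by limma's F test. Thra correlated with Dio1 at 0.383 in the higher component (exact permutation p 0.391, adjusted 0.589) and at 0.488 in the lower (permutation p 0.0844, adjusted 0.282). Its rho was 0.357 (exact permutation p 0.444, adjusted 0.627) and 0.622 (permutation p 0.0208, adjusted 0.217), and over all 21 tumours limma's adjusted p was 0.337. Thrb, the beta receptor, had values on 32 arrays and was not tested. Over all 21 tumours limma called 5 of the 15 positive (Dio2, Klf9, Ncoa1, Ncoa2 and Med1), beside 33.2% of all genes, and 3 after centring, Dio2, Klf9 and Ncoa1, beside 6.55%. Klf9 is a direct target of thyroid hormone receptors, and the Ncoa genes encode coactivators. Klf9 was -0.11 to 1.13 in the higher component and -2.46 to 0.82 in the lower.

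Genes of the thyroid gland itself were mostly not measured. Of 14 genes for hormone and iodide synthesis 11 had a probe and only Tshb and Trh had enough values, and neither differed between tumours by limma's F test (unadjusted p 0.557 and 0.306). Tg, the hormone precursor, had a value on 28 arrays, Slc5a5, the iodide transporter, on 16, and Pax8, a thyroid transcription factor, on 17. The kidney and liver lists, from organs that express Dio1, left 2 testable genes of 8 and 2 of 11. Over all 21 tumours limma called both kidney genes, Kap and Lrp2, positive, beside 33.2% of all genes, but neither after centring. It called no liver gene either way. The part of such tissue in the Dio1 values was not tested.

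Among 30 selenoprotein and selenium genes, 27 had a probe and 22 could be tested. By limma's F test 3 differed between tumours, beside 18.9% of all genes: Gpx3, an extracellular glutathione peroxidase (adjusted p 1.5e-05), Selenop, the plasma carrier of selenium (0.000113), and Selenoo, a mitochondrial selenoprotein (0.0146). With the dye orientation as a covariate 13 of the 22 differed, beside 45.1%. Selenop was 1.75 to 2.31 in all 7 tumours of the higher component and -2.77 to 2.01 in the lower, where tumours 673, 644 and 649 reached 1.74 or more. Gpx3 was 0.77 to 1.35 in the higher component and -0.84 to 3.75 in the lower. Its highest values were in tumours 673, 644 and 646, which are among the 5 with high Vim. Selenoo was -1.68 to 0.34 in the higher component and -5.36 to 0.75 in the lower. Over all 21 tumours limma called 6 of the 22 positive, beside 33.2% of all genes, and 2 negative (Gpx4 and Pstk), beside 2.94%. After centring it called 4 positive, beside 6.55%, and 7 negative, beside 10.3%. Positive both ways were Selenop, Msrb1, which repairs oxidised methionine, Eefsec, the elongation factor for selenocysteine, and Scly, which recycles selenium.

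**Figure D5:**
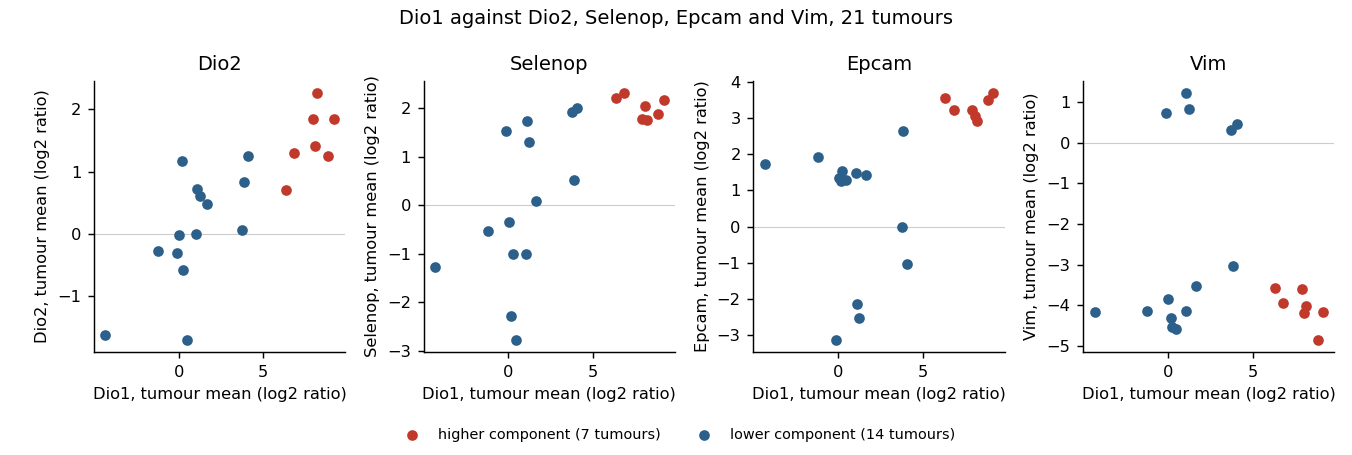
Tumour means of Dio2, Selenop, Epcam and Vim (y axes, turned log2 ratio) against those of Dio1 (x axes) in 21 tumours, with red for the 7 tumours of the higher component and blue for the 14 of the lower. All 7 red tumours have Epcam at 2.93 or more and Vim at -3.58 or less, and the 5 tumours with Vim above 0 are blue.

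Of 12 tested epithelial markers limma called 6 positive and 1 negative on Dio1 over all 21 tumours, and 3 and 1 after centring, and of 12 mesenchymal markers 1 negative either way. The shares of all genes were 33.2% positive and 2.94% negative, and 6.55% and 10.3% after centring. On centred arrays the median of the epithelial markers was 1.30 to 2.57 in the higher component and -0.99 to 2.08 in the lower, and that of the mesenchymal markers -3.43 to -1.95 and -2.57 to 1.13. Epcam, an epithelial adhesion molecule, was 2.93 to 3.69 in the higher component and -3.13 to 2.64 in the lower. Over all 21 tumours it was called before centring and not after. Krt19, a luminal keratin, was called both ways, and its correlations with Dio1 within the components were negative, at -0.958 and -0.502. The 5 tumours with high Vim had Dio1 at 4.07 (673), 3.75 (644), 1.24 (647), 1.10 (649) and -0.13 (646), so none was in the higher component and 2 of the 3 intermediate tumours were among them. Within the components Epcam did not follow Dio1, at 0.108 and -0.169. Perp stood at 0.700 and 0.562, and Grhl2 at 0.153 and 0.655. Over the 12 tested epithelial markers the median was -0.163 and 0.150, beside -0.240 and 0.415 for all genes. No relation of an epithelial marker within the components passed. Of the salivary gland list 9 of 12 genes had a probe and 4 were tested, Car6, Dcpp1, Amy1 and Aqp5. The median of those 4, on centred arrays, was 0.31 to 2.15 in the higher component and -0.88 to 1.15 in the lower. Dcpp1, a secreted protein of saliva glands, was 1.44 to 5.43 in the higher component and -0.61 to 2.23 in the lower. Over all 21 tumours limma called Car6 and Dcpp1 of those 4 positive, before centring (33.2% of all genes) and after it (6.55%), and Car6 had been picked as the gene most like Dio1. Such calls were not particular to the salivary list. Of the lung list 2 genes were tested, Scgb1a1 and Cyp2f2, and both were called positive before centring and Cyp2f2 after it. The median correlation after centring was 0.585 for the lung genes and 0.415 for the salivary genes. The part of gland or epithelial content in the Dio1 values was not tested.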

How the data were processed

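Per the labels' protocols, total RNA of each tumour was labelled with Cy3 or Cy5 and hybridised in dye-swapped pairs against a universal mouse reference RNA on a 22K oligonucleotide library. The deposited values were read from their range as log2 ratios of the dyes. How the authors corrected background and normalized is not given in the sources used here. There were 726515 values, and 24.1% of cells were blank. A repeated top value of 16.61 (15512 values, 2.14%) was treated as missing. Arrays were turned by the first eigenvector of the correlations between pair differences, 21 arrays in each orientation, and turned differences correlated at a median of 0.379 between tumours. Of the probes, 16874 had 1 gene symbol, 134 several and 5792 none, and current symbols were found for 16196 through gene identifiers. Probes of a gene were averaged, with no pseudocount.

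Genes with values in both arrays of at least 15 tumours were tested (7629). limma 3.58.1 in R 4.3.3 fitted the tumour as a factor (moderated F) and, over tumour means, each gene on the Dio1 mean within components from mclust 6.1.1, with Benjamini-Hochberg adjustment over all genes and a threshold of 0.05. A tumour whose gene or Dio1 value came from 1 array entered with that value. Arrays of a tumour share its RNA, so F tests measure hybridisation error. Correlations used two-sided permutation tests, with 100000 permutations for 14 tumours and all 5040 orders for 7. These tests and the slopes treat tumours as independent. The labels do not give the line, so tumours of a shared line could not be accounted for. The fits were tested on simulated data.

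Genes named were Dio1, the deiodinases, thyroid receptors, listed pathway genes that passed a test and measured milk genes. The 10 genes with the highest and 5 with the lowest correlation with Dio1 were also named. Of the other lists only some of the genes most related to Dio1 are named. Myc, Vim and Epcam were added to describe the tissue. The overall sign was set by Myc, so its positive values check nothing. The gene and the lists were chosen with earlier results of these data known. Alternatives changed the centring, quantile normalization, the filter, the top value, the slide run, the dye, the covariate and the tumours or arrays used. Python 3.11.15 with scipy 1.17.1 made the summaries.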

Additional observations from a re-analysis of the deposited data

How the results depend on the processing

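No paired analysis was possible from the labels alone, because the labels carry no replicate numbers shared between tumours. Arrays could be matched across tumours only by the dye orientation, which was inferred from the data. The main F test left that orientation out and called 18.9% of all genes, and with it as a covariate the test called 45.1%. Of 94 values of the main results under alternatives other than leaving out 1 array or tumour, 63 kept their side of the threshold or lay within the spread, and 31 moved. The count of 75 genes related to Dio1 in the lower component became 0 after centring, without the 2 tumours farthest from the median, with Dio1 from the first orientation and genes from the second, with ranks, with the slide run as a block, with a filter of 10 tumours and with the top value kept. It became 1 by quantile normalization, with the orientations exchanged and without the 4 tumours with Dio1 on 1 array (chosen after seeing the data), and 2 with a filter of 21 tumours. All 21 tumours together gave 2757 in place of 75 and of 0, and 6 milk genes in place of 0. The median milk correlation of the higher component (-0.315) became 0.467 over all tumours, -0.517 with the slide run, -0.155 with a filter of 10 and -0.505 with a filter of 21. That of the lower (0.02) became 0.467 over all tumours, 0.270 without the 2 farthest tumours, 0.309 with Dio1 from the first orientation and 0.357 with the slide run. The Dio1 range of 13.48 became 11.25 by quantile normalization. The 3 selenoprotein genes became 7 by centring, 5 by quantile normalization and 13 with the dye as a covariate, and the 3 thyroid hormone genes became 1 with either filter or the slide run and 7 with the dye, where the share of all genes called was 14.4% by quantile normalization, 11.7% and 39.3% with filters of 10 and 21, 7.68% with the slide run, 45.1% with the dye and 19.6% by centring. The causes were not tested.

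Leaving out 1 array, the Dio1 range ran from 10.37 (without the value of tumour 664) to 14.02. The lower component's count ran from 0 to 533, its milk calls from 0 to 1, the selenoprotein count from 2 to 8 and the thyroid hormone count from 1 to 7. The 8 and the 7 came without the second array of tumour 660, when 31.9% of all genes were called. The higher component's counts stayed at 0. The median milk correlation ran from -0.405 to -0.232 in the higher component and from -0.032 to 0.180 in the lower, and leaving out 1 tumour from -0.403 to -0.206 and from -0.124 to 0.178. The low end of Dio1 rests on few values, since 4 tumours have it on 1 array.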

Other observations

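The genes around Dio1 on chromosome 4 did not share its pattern as a set. The 5 measured genes on either side had a median correlation with Dio1 of 0.115 over 21 tumours, and of -0.204 after centring, beside 0.368 and -0.01 for all genes. The highest was Tmem59, a membrane protein of the Golgi, at 0.751, and at 0.489 after centring. Car6 lies on the same chromosome with 237 measured genes between it and Dio1.

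Of the other lists, the endothelial genes Tie1 and Emcn correlated with Dio1 at -0.442 and -0.576 in the higher component and at 0.778 and 0.735 in the lower. That change of sign was not particular to endothelial genes. The median correlation over all genes was -0.240 in the higher component and 0.415 in the lower. It was -0.611 and 0.489 for the macrophage list, and -0.607 and 0.384 for the proliferation list. Krt19, a luminal keratin, correlated at -0.958 in the higher component over 6 tumours (exact permutation p 0.00417, adjusted 0.1) and at -0.502 in the lower. The difference between components was not tested.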
